A study of Mus musculus with 15 samples.

Results

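The 8 genes examined are markers of mature neutrophils: *Ly6g*, *Retnlg*, *Cxcr2*, *Asprv1*, *Hdc*, *Slpi*, *Wfdc21* and *Mxd1*. They were chosen by name from the 38924 genes listed for every library, with earlier results of these data known. Of the 8, 7 were found by symbol. *Wfdc21* was found by its Ensembl identifier, ENSMUSG00000051748, because the files list it under an older name. All 8 passed the filter on low values (1 or more cpm, counts per 1000000, in 2 or more libraries), as did 14967 genes in all. RNA-seq libraries came from brain myeloid cells, sorted as CD11b+ and split by their level of CD45 into CD45hi and CD45lo cells. The mice were wild-type C57BL/6J, 12 months old, and had eaten either a western diet (WD) or a control chow diet (CD), which the study's methods place from the age of 2 months. There were 4 libraries of CD45hi cells and 4 of CD45lo cells from CD-fed mice, and 3 and 4 from WD-fed mice. The sort used no neutrophil marker, so a CD45hi library is a mixture of cell types. The labels do not tie a CD45hi library to a CD45lo library of the same mouse, and the study describes its deposited counts as those of single animals.

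Neutrophils are short-lived granulocytes that mature in the bone marrow, circulate in the blood and enter tissue along gradients of chemokines. Receptors such as CXCR2 are switched on late in this maturation, whereas the enzymes of the primary granules are transcribed early, in precursors. In a healthy brain neutrophils are scarce and lie mainly in vessels, the meninges and the choroid plexus, while microglia make up most of the CD11b+ cells.

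Sequencing depth was similar across groups, with 11951412 to 17912272 expected counts per library, and 3 counts corresponded to 0.156 to 0.282 cpm. No libraries were identical. Microglia made RNA in both sorts: the summed level of 9 microglia markers was 6420 to 7782 cpm in CD45hi libraries of CD-fed mice and 16440 to 17500 cpm in their CD45lo libraries. In a sorted mixture, fewer cells of a type and less RNA per cell cannot be told apart.

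The genes lie on 6 chromosomes in the GENCODE M21 annotation of GRCm38 (the build also called mm10). *Cxcr2* is at chr1:74153989-74161246 on the plus strand, *Retnlg* at chr16:48872621-48874496 on the plus strand and *Ly6g* at chr15:75155240-75159126 on the plus strand. *Hdc* (chr2:126593667-126619299) and *Slpi* (chr2:164354070-164389095) are both on the minus strand of chromosome 2, and *Wfdc21* is at chr11:83746940-83752642 on the plus strand. *Asprv1*, a gene of 1 exon at chr6:86628164-86629710 on the plus strand, and *Mxd1*, at chr6:86647042-86669161 on the minus strand, are neighbours: 17331 bases separate them and the annotation has 0 genes between.

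RefSeq promoters (GRCm38.p6) were at hand for 7 of the 8 genes, not for *Wfdc21*. The 250 bases before the start site were searched on both strands for TTNNGCAA, a form of the site bound by C/EBP factors, and for GAGGAAG, a core bound by PU.1, both factors being regulators of the granulocyte lineage. The first held in 3 of the 7 genes and in 9.57% of 32841 promoters of the same length. The second was present in 1 of the 7 genes and in 10.6% of those promoters. The sequences of the 3 genes with a match are shown, with that of *Cxcr2*, the gene of the 8 with the most counts, for comparison. Capitals mark the matches, and each is read 5′ to 3′ up to the base before the start site:
*Ly6g* (chr15:75155011-75155260, plus strand): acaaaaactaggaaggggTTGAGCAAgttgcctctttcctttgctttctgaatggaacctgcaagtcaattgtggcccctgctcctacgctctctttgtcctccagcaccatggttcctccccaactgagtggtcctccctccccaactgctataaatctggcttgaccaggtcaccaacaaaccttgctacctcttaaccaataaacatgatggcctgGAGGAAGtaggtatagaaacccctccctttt
*Retnlg* (chr16:48872358-48872607, plus strand): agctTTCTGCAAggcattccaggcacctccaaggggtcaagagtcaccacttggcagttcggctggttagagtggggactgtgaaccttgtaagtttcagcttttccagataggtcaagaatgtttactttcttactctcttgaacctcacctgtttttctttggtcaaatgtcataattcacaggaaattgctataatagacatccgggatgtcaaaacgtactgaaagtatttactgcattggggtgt
*Slpi* (chr2:164356508-164356757, minus strand): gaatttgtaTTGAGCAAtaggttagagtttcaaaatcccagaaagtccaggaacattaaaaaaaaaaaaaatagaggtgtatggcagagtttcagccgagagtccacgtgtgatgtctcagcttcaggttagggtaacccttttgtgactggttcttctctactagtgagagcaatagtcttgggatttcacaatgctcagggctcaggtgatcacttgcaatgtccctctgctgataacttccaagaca
*Cxcr2* (chr1:74153744-74153993, plus strand): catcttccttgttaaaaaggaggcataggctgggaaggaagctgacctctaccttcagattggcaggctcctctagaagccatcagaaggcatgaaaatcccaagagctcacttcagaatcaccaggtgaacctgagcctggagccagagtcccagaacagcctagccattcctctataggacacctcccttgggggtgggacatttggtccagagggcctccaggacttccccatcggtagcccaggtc

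The matches to TTNNGCAA lay far from the start sites, beginning 232 bases before the start of *Ly6g*, 246 before that of *Retnlg* and 241 before that of *Slpi*. *Ly6g* and *Slpi* shared the letters TTGAGCAA. The match to GAGGAAG in *Ly6g* began 31 bases before the start shown and 99 bases before a second start that RefSeq lists for this gene.

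The first question was whether these genes differ between CD45hi cells, held to contain infiltrating cells, and CD45lo cells, held to be mainly microglia. *Retnlg*, *Cxcr2*, *Asprv1*, *Hdc* and *Mxd1* were higher in CD45hi cells on both diets, and *Slpi* on the CD. The folds ran from 6.71 for *Mxd1* on the WD to at least 171 for *Asprv1* on the CD. *Ly6g* and *Wfdc21* were low in both sorts and did not pass the test. In CD-fed mice 6 of the 8 genes passed (edgeR glmTreat against a 1.5-fold limit, false discovery rate, FDR, below 0.05), all higher in CD45hi cells, where 3.39% of all genes tested were called higher. In WD-fed mice 5 of the 8 passed, against 4.01% of all genes. The libraries of the sorts did not overlap for 6 of the 8 genes in CD-fed and 6 of the 8 in WD-fed mice, while every CD45hi library lay above every CD45lo library for 8.25% and 10.0% of all genes. At an unadjusted p below 0.05 in either direction (edgeR glmQLFTest, with no fold limit) there were 6 of the 8 on each diet, beside 20.1% and 24.5% of all genes. DESeq2, with the 1.5-fold limit applied after its test, called 6 on each diet, beside 12.0% and 15.3%. The median log2 fold change of the 8 was 4.65 in CD-fed and 3.75 in WD-fed mice, beside 0.04 and 0.00 over all genes tested. With *Asprv1* set to its lower bound the medians were again 4.65 and 3.75.

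**Figure D1:**
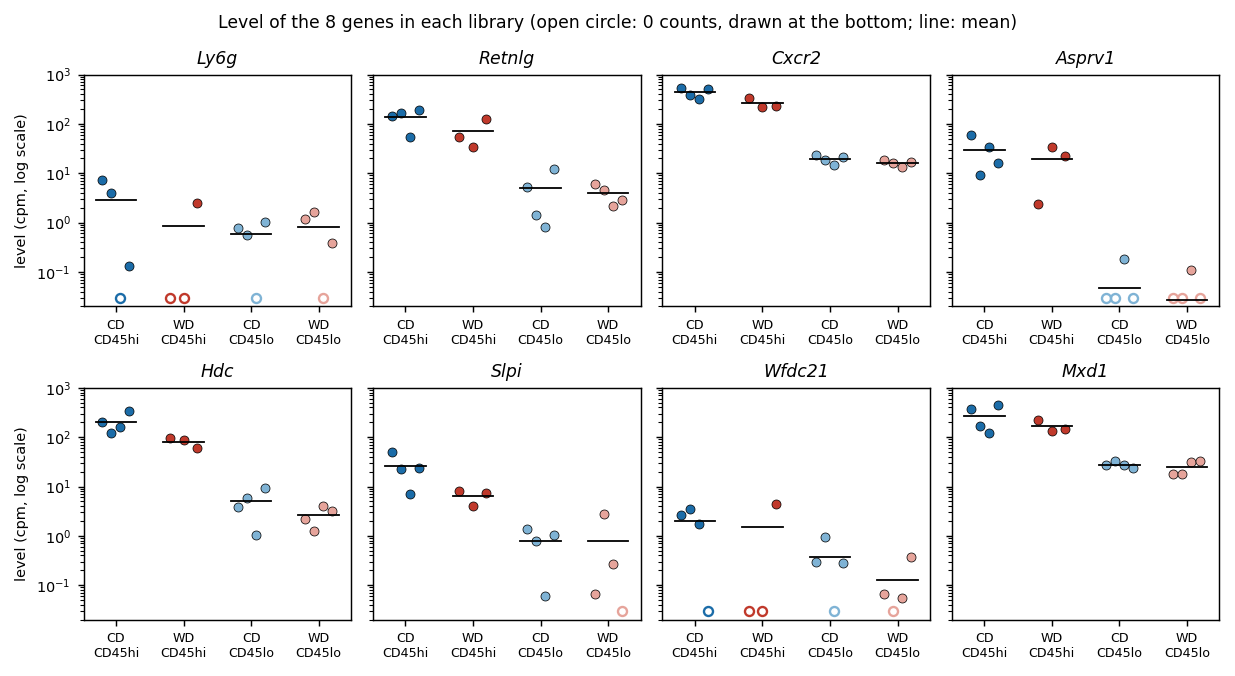
Level of each gene (cpm, log axis) in every library of the 4 groups, as points, with the group mean as a line. Libraries with 0 counts are open circles at the bottom of each panel. The CD45hi libraries stand above the CD45lo libraries for 6 genes, while *Ly6g* and *Wfdc21* have a library at 0 in every group.

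*Cxcr2* encodes the chemokine receptor that draws neutrophils out of the marrow and towards CXCL1 and CXCL2. Its level was 530, 385, 320 and 515 cpm in the 4 CD45hi libraries of CD-fed mice and 332, 221 and 232 cpm in those of WD-fed mice. In CD45lo libraries it was 23.2, 18.6, 14.4 and 21.5 cpm on the CD and 18.4, 16.2, 13.6 and 17.1 cpm on the WD. The sorts were far apart, and among replicates of CD45hi cells *Cxcr2* varied the least of the 8. The log2 fold change of CD45hi over CD45lo cells was 4.50 (SE 0.24, edgeR glmTreat FDR = 1.28e-08) on the CD and 4.00 (SE 0.24, FDR = 6.02e-08) on the WD. RSEM gave *Cxcr2* a fractional count in 13 of 15 libraries, so some of its reads also matched another gene model. The other 7 genes had whole counts in every library.

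*Ly6g*, a surface protein anchored in the membrane of mouse neutrophils and the usual target of antibodies against them, behaved differently. It had 112, 48, 0 and 2 counts in the CD45hi libraries of CD-fed mice (7.34, 3.97, 0 and 0.129 cpm) and 0, 0 and 33 counts in those of WD-fed mice (0, 0 and 2.53 cpm). In CD45lo libraries it had 13, 11, 0 and 18 counts on the CD and 18, 22, 0 and 5 on the WD. The groups overlapped throughout. Of the 4 CD45hi libraries with 0 or 2 counts of *Ly6g*, 3 also had 0 counts of *Wfdc21*, while *Cxcr2* stood at 221 to 515 cpm and *Retnlg* at 34.6 to 192 cpm in the 4. The log2 fold change between the sorts was 2.26 (SE 1.85, 95% CI -1.64 to 6.17, edgeR glmTreat FDR = 0.776) on the CD and 0.09 (SE 1.92, CI -3.97 to 4.14, FDR = 1.0) on the WD, intervals that include either direction. The gene model behind these counts is 336 bases long, whereas the longest *Ly6g* transcript in GENCODE M21 has 941 bases. Its part in the low counts was not tested.

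*Retnlg* encodes a secreted protein of the resistin family made by neutrophils and their marrow precursors. The CD45hi libraries held 145, 169, 55.1 and 192 cpm in CD-fed and 53.9, 34.6 and 125 cpm in WD-fed mice. The CD45lo libraries held 5.29, 1.45, 0.799 and 12.4 cpm, and 6.10, 4.60, 2.14 and 2.80 cpm, respectively. No CD45lo library came near the lowest CD45hi library, although *Retnlg* varied by 5.55-fold among the 7 CD45hi libraries. The log2 fold change was 4.81 (SE 0.75, edgeR glmTreat FDR = 0.000808) on the CD and 4.19 (SE 0.75, FDR = 0.00297) on the WD.

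*Hdc* encodes histidine decarboxylase, the enzyme that makes histamine, and is known from mast cells, basophils and neutrophils. It reached 202, 124, 164 and 338 cpm in CD45hi libraries of CD-fed mice and 97.6, 86.3 and 59.4 cpm in those of WD-fed mice. CD45lo libraries had 3.77, 5.86, 1.04 and 9.42 cpm on the CD and 2.23, 1.26, 4.12 and 3.18 cpm on the WD. The sorts did not overlap on either diet. The log2 fold change between them was 5.36 (SE 0.57, edgeR glmTreat FDR = 1.71e-05) on the CD and 4.90 (SE 0.57, FDR = 5.22e-05) on the WD.

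*Asprv1* encodes an aspartic protease of retroviral type first known from the epidermis. It had the most complete separation of the 8: 58.9, 9.36, 33.4 and 16.1 cpm in CD45hi libraries of CD-fed mice, 2.35, 34.4 and 22.4 cpm in those of WD-fed mice, and at most 3 counts in any of the 8 CD45lo libraries. Set against 3 counts per library, its mean was at least 171-fold higher in CD45hi than in CD45lo cells on the CD (edgeR glmTreat FDR = 0.000286) and at least 97.2-fold higher on the WD (FDR = 0.000458). Within CD45hi cells it ranged over 25.0-fold, with replicate 1 of the WD-fed mice the lowest and replicate 1 of the CD-fed mice the highest.

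*Slpi* and *Wfdc21* belong to the family of secreted proteins with a whey acidic protein domain. SLPI blocks the neutrophil proteases elastase and cathepsin G. *Slpi* stood at 50.6, 23.1, 6.95 and 24.0 cpm in CD45hi libraries of CD-fed mice and 7.995, 4.03 and 7.28 cpm in those of WD-fed mice. In CD45lo libraries it was 1.35, 0.778, 0.0615 and 1.02 cpm on the CD, and 0.0656, 2.82, 0.274 and 0 cpm on the WD. The sorts did not overlap on either diet. The log2 fold change was 5.01 (SE 1.21, edgeR glmTreat FDR = 0.0255) on the CD. On the WD it was 3.03 (SE 1.16, 95% CI 0.58 to 5.47, FDR = 0.185), past the threshold once CD45lo replicate 2 was left out (5.65, FDR = 0.012). The call on the CD was lost when CD45hi replicate 1 or any 1 of the 4 CD45lo replicates of CD-fed mice was left out, with FDR from 0.0623 to 0.0896 and log2 fold changes from 4.47 to 5.37. The diet difference in this contrast was not called (interaction log2 fold change -1.99, SE 1.57, edgeR FDR = 0.727).

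*Wfdc21* was near the floor: 2.62, 3.56, 1.76 and 0 cpm in CD45hi libraries of CD-fed mice and 0, 0 and 4.45 cpm in those of WD-fed mice. CD45lo libraries had 0.294, 0.934, 0 and 0.284 cpm on the CD and at most 0.379 cpm on the WD. The sorts overlapped on both diets, and neither log2 fold change passed the test (2.36, SE 1.79, edgeR glmTreat FDR = 0.733 on the CD; 3.51, SE 1.97, FDR = 0.400 on the WD). Both genes at the floor, *Ly6g* and *Wfdc21*, were at 0 counts in WD CD45hi replicates 1 and 2 and present in replicate 3.

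*Mxd1* encodes a partner of MAX that represses MYC targets as cells leave the cell cycle and mature. It was at 366, 165, 124 and 439 cpm in CD45hi libraries of CD-fed mice and at 222, 136 and 149 cpm in those of WD-fed mice. In CD45lo libraries it was at 27.6, 32.3, 27.1 and 23.8 cpm on the CD and 17.8, 17.9, 31.5 and 33.6 cpm on the WD. The sorts did not overlap. Its log2 fold change was the smallest among the genes called, 3.31 (SE 0.37, edgeR glmTreat FDR = 5.62e-05) on the CD and 2.75 (SE 0.38, FDR = 0.000495) on the WD. The mean level in CD45lo cells was 10.1% of that in CD45hi cells on the CD and 14.9% on the WD for *Mxd1*. For *Cxcr2* these shares were 4.43% and 6.24%, for *Retnlg* 3.55% and 5.49%, and for *Hdc* 2.43% and 3.33%, so CD45lo cells were low but not devoid of these transcripts.

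Between genes, levels were compared as TPM, RSEM transcript shares per 1000000 that divide by length. In CD45hi cells of CD-fed mice *Retnlg* was first with 432 ± 181 TPM (SD, n = 4), followed by *Cxcr2* with 244 ± 53.6, *Hdc* with 94.6 ± 29.1, *Mxd1* with 82.1 ± 42.2, *Slpi* with 61.4 ± 37.8, *Asprv1* with 29.6 ± 22.4, *Ly6g* with 23.2 ± 28.0 and *Wfdc21* with 10.4 ± 8.19 TPM. In this order only the step from *Cxcr2* to *Hdc* exceeded the SDs of both neighbours added together. In WD-fed mice (n = 3) *Retnlg* had 212 ± 148 TPM, *Cxcr2* 147 ± 42.7, *Mxd1* 49.03 ± 13.9, *Hdc* 37.1 ± 5.09 and the other 4 genes less than 20 TPM on average. There only the step from *Cxcr2* to *Mxd1* exceeded the neighbours' SDs.

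**Figure D2:**
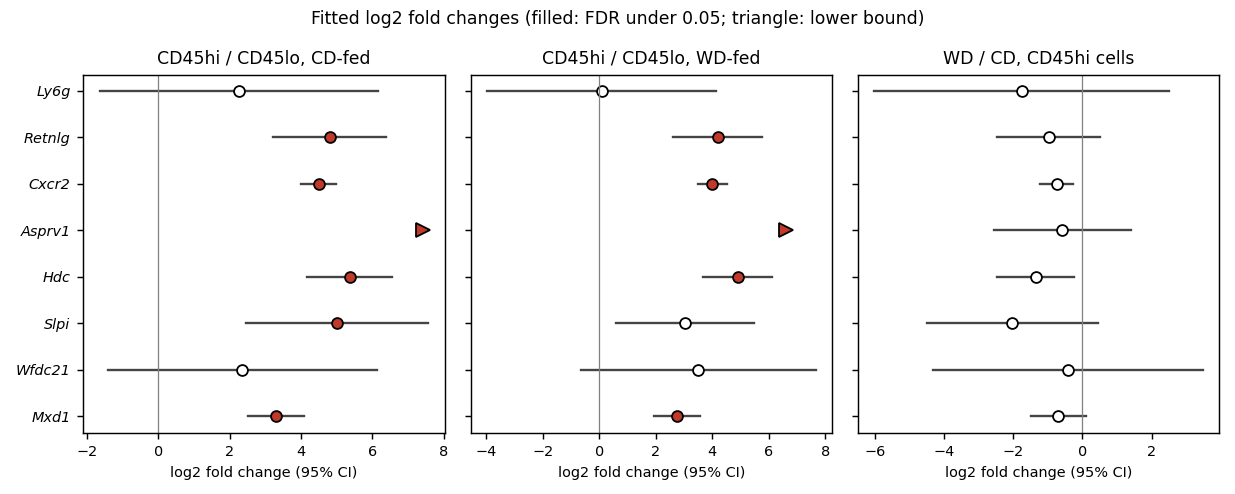
Fitted log2 fold change of each gene with its 95% CI, for CD45hi over CD45lo cells on each diet and for WD over CD in CD45hi cells. Filled symbols passed an FDR of 0.05, and triangles give the lower bound for *Asprv1*. All 8 points lie above 0 in the first 2 panels, and all 8 lie below 0, unfilled, in the third.

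The second question was whether the diet moved these genes. In CD45hi cells every one of the 8 had a lower fitted level in WD- than in CD-fed mice, but 0 of the 8 passed the test (edgeR glmQLFTest, FDR below 0.05), where 0.254% of all genes did. The median log2 fold change of the 8 was -0.86, beside -0.02 over all genes tested. The 8 values come from the same 7 libraries and are not independent of one another. At an unadjusted p below 0.05 there were 2 of the 8, *Cxcr2* and *Hdc*, where 17.6% of all genes were, so this count is near the background. DESeq2 called 1 of the 8, *Cxcr2* (adjusted p = 0.0385), beside 6.88% of all genes. The newer quasi-likelihood fit of edgeR (version 4 form) called 2, *Hdc* (FDR = 0.0353) and *Slpi* (FDR = 0.0414), beside 1.68% of all genes, so the call depended on the method.

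*Hdc* was the only gene of the 8 for which every WD library (59.4 to 97.6 cpm) lay below every CD library (124 to 338 cpm), a pattern shown by 3.20% of all genes tested. Its log2 fold change was -1.35 (SE 0.52, 95% CI -2.46 to -0.25, edgeR unadjusted p = 0.0196, FDR = 0.199). *Cxcr2* had a log2 fold change of -0.74 (SE 0.22, CI -1.21 to -0.27, unadjusted p = 0.00423, FDR = 0.124), with 1 WD library above the lowest CD library. The values for *Slpi* (-2.02, SE 1.17, FDR = 0.387), *Retnlg* (-0.98, SE 0.70, FDR = 0.500), *Mxd1* (-0.70, SE 0.37, FDR = 0.351) and *Asprv1* (-0.58, SE 0.93, FDR = 0.799) came with overlapping libraries. For *Asprv1* the sign rested on 1 library: without CD45hi replicate 1 of the CD-fed mice the log2 fold change was 0.01. *Ly6g* (-1.75, SE 2.02, FDR = 0.699) and *Wfdc21* (-0.42, SE 1.85, FDR = 0.940) were close to the floor, and for *Wfdc21* the sign turned, to at most 0.17, without CD45hi replicate 2 of the CD-fed or replicate 1 or 2 of the WD-fed mice. The summed level of the 8 genes was 706 to 1524 cpm in CD45hi libraries on the CD and 516 to 717 cpm on the WD, ranges that just met.

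In CD45lo cells the diet was associated with no call among the 8 (0 by edgeR, 0 by DESeq2, and 0 at an unadjusted p below 0.05), and 0% of all genes passed edgeR's test, with 0.822% at an unadjusted p below 0.05 and 0.0267% called by DESeq2. The summed level of the 8 was 43.6 to 69.4 cpm on the CD and 44.4 to 57.5 cpm on the WD. An interaction between diet and sort was called for 0 of the 8 genes by edgeR and 0 by DESeq2, with 0 at an unadjusted p below 0.05. Over all genes these shares were 0.00668%, 1.26% and 10.1%.

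**Figure D3:**
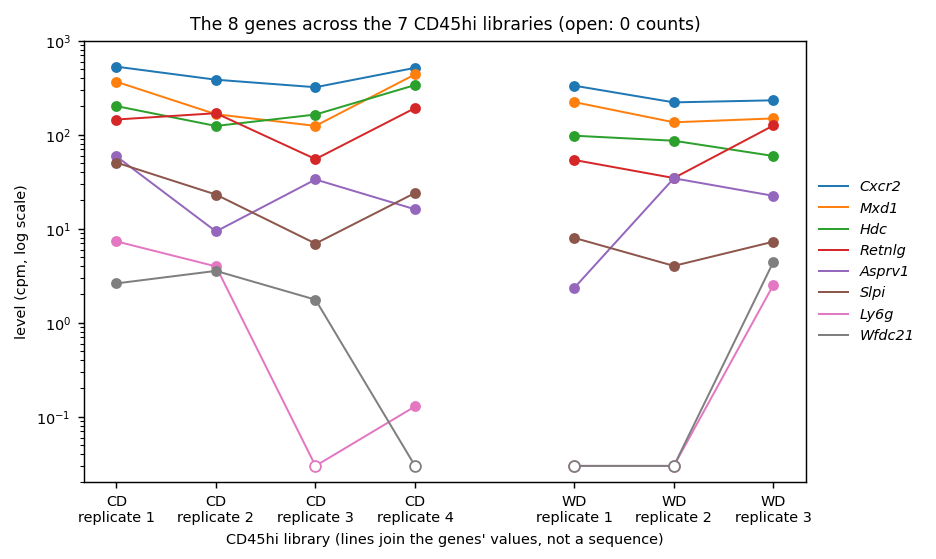
Level of the 8 genes (cpm, log axis) in each of the 7 CD45hi libraries. Lines follow a gene across libraries and imply no order of the replicates. *Cxcr2*, *Mxd1*, *Hdc* and *Retnlg* keep within 1 order of magnitude, whereas *Ly6g* and *Wfdc21* drop to 0 counts (open symbols) in some libraries.

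Within CD45hi cells the genes did not all rise and fall together, although *Cxcr2* and *Slpi* ranked the 4 libraries of CD-fed mice in the same order. The SD of log2 cpm among replicates of a diet was 0.34 for *Cxcr2*, 0.53 for *Hdc*, 0.72 for *Mxd1*, 0.87 for *Retnlg*, 0.97 for *Slpi*, 1.57 for *Asprv1*, 2.52 for *Wfdc21* and 2.72 for *Ly6g*, beside a median of 0.81 over 10148 genes with at least 5 cpm in CD45hi cells. The means of *Ly6g* and *Wfdc21* in CD45hi cells were below that level on both diets. Among the CD-fed mice, CD45hi replicate 3 was the lowest for 5 genes, *Ly6g*, *Retnlg*, *Cxcr2*, *Slpi* and *Mxd1*, while *Asprv1* and *Hdc* were lowest in replicate 2 and *Wfdc21* in replicate 4. In the same replicate 3 the summed level of S100 proteins and stefins was 556 cpm and that of granule genes 323 cpm, the lowest of the 4 in both cases. Among the WD-fed mice, replicate 3 was the highest for *Ly6g*, *Wfdc21* and *Retnlg* and the lowest for *Hdc*. The SD of the log2 ratio of each gene to the other 7 was 0.73 for *Retnlg* and 0.79 for *Slpi*, both below their SD of level, but 0.91 for *Cxcr2* and 1.26 for *Hdc*, both above it. For each of these genes the other 7 include *Ly6g* and *Wfdc21*, so the ratios also carry the swings of those genes to 0 counts.

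The genes most like the 8 were sought among 10142 candidates with a mean of at least 5 cpm in the CD45hi libraries, where most of the 8 are high. The measure was the root mean square difference between a gene's centred log2 cpm and the mean of the 8 over the 15 libraries. It spans both sorts, so genes of other cells that are higher in CD45hi cells can also come close. The closest were *P2ry10* (0.55), a receptor of lymphoid and myeloid cells, *S100a11* (0.56), *S100a8* (0.60), *S100a9* (0.62), *Gas7* (0.62) and *Sema4a* (0.64), beside a median of 2.15 over all candidates. *S100a8* and *S100a9* encode the subunits of calprotectin, the most abundant cytosolic protein complex of neutrophils. *S100a9* was at 947 ± 375 cpm (SD, n = 4) in CD45hi cells of CD-fed mice and 84.8 ± 57.9 cpm in CD45lo cells, and at 400 ± 177 (n = 3) and 37.2 ± 14.4 cpm (n = 4) in WD-fed mice. *Cxcr2*, which took part in the mean, differed from it by 0.59, whereas *Ly6g* differed by 2.27.

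Other neutrophil genes were taken from lists. Of 12 neutrophil receptors and surface proteins tested, 6 were called higher in CD45hi cells on the CD and 5 on the WD, beside 3.39% and 4.01% of all genes. The one with the highest cpm, *Csf3r*, the receptor for the granulocyte growth factor G-CSF, did not separate the sorts: it was at 730 ± 135 cpm (SD, n = 4) in CD45hi and 551 ± 65.5 cpm (n = 4) in CD45lo cells of CD-fed mice (log2 fold change 0.40, SE 0.15, edgeR glmTreat FDR = 1.0). *Trem1*, an amplifier of inflammatory signals on neutrophils and monocytes, was at 105 ± 29.8 cpm in CD45hi and 1.196 ± 0.672 cpm in CD45lo cells on the CD (log2 fold change 6.45, SE 0.52, edgeR glmTreat FDR = 8.35e-07). *C5ar1*, the receptor for complement fragment C5a, was called on the CD (1.40, SE 0.20, FDR = 0.00339) but not on the WD (0.94, SE 0.21, FDR = 0.150). *Cxcr1*, a receptor related to CXCR2, had 0 counts in all 15 libraries, which allows up to 3 counts or 0.282 cpm in any of them.

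Over all genes the share called higher in CD45hi cells was 3.39% on the CD and 4.01% on the WD. Of 6 S100 proteins and stefins, 3 were called higher in CD45hi cells on each diet, *S100a8*, *S100a9* and *Stfa2l1*. Of 11 genes of the secondary and tertiary granules, 2 were called on the CD and 4 on the WD. Those with the highest cpm were *Ngp*, at 524 ± 437 cpm in CD45hi and 222 ± 160 cpm in CD45lo cells of CD-fed mice (n = 4 each) and not called, *Lcn2*, also not called, and the collagenase gene *Mmp8*, called on both diets (on the CD the log2 fold change was 4.18, SE 0.57, edgeR glmTreat FDR = 0.000236; on the WD 3.40, SE 0.57, FDR = 0.00196). At an unadjusted p below 0.05 there were 20.1% and 24.5% of all genes on the CD and WD, and DESeq2 called 12.0% and 15.3%. Of 6 genes of precursors and primary granules, such as *Mpo* and *Elane*, 0 were called by edgeR on either diet, with 0 on the CD and 1 on the WD at an unadjusted p below 0.05, and 0 and 1 called by DESeq2. Their summed level was at most 0.193 cpm in 5 of the 7 CD45hi libraries, but 125 cpm in replicate 2 of the CD-fed mice and 43.9 cpm in replicate 3 of the WD-fed mice. In CD45lo libraries the same genes summed to 111 cpm in replicate 2 of the CD-fed mice, which bears the same number as the high CD45hi library, and to 0.553 to 5.79 cpm in the other 3, and on the WD to 0.110 to 25.2 cpm. In the 2 high CD45hi libraries the granule genes were also at 2467 and 1297 cpm. These were the highest granule levels of their groups, and their part in the levels of the 8 genes was not tested.

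Partners of the 8 genes were examined by role, where 3.39% of all genes were called higher in CD45hi cells on the CD and 4.01% on the WD. Of the CXCR2 ligands, 3 were tested and 1, *Cxcl2*, was called higher in CD45hi cells on both diets, at 153 ± 37.9 against 1.54 ± 0.818 cpm on the CD (n = 4 each; log2 fold change 6.63, SE 0.61, edgeR glmTreat FDR = 3.43e-06) and 94.97 ± 31.8 (n = 3) against 0.701 ± 0.850 cpm (n = 4) on the WD (7.11, SE 0.65, FDR = 3.13e-06). Of 4 histamine genes tested, *Hdc* alone was called. *Hnmt*, which breaks histamine down by methylation, was at 40.6 ± 31.0 cpm in CD45hi and 58.1 ± 23.1 cpm in CD45lo cells of CD-fed mice and did not pass, with 1 CD45hi library at 0.386 cpm and the other 3 at 33.6 to 70.8 cpm. On the WD *Hnmt* was at 11.8 ± 10.6 cpm (n = 3) in CD45hi and 64.3 ± 9.89 cpm (n = 4) in CD45lo cells, every CD45hi library lying below every CD45lo library, and again did not pass (-2.45 on the log2 scale, SE 0.95, edgeR glmTreat FDR = 0.196). In the resistin family *Retnlg* was the only call among 2 genes tested. In the whey acidic protein family *Slpi* was joined on the CD by *Wfdc17*, at 73.8 ± 30.9 against 2.41 ± 1.63 cpm (log2 fold change 4.93, SE 0.63, edgeR glmTreat FDR = 0.000134), among 3 tested. *Wfdc17* alone was called on the WD.

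Of 7 genes of the Ly6 family, which include *Ly6g*, 0 were called by edgeR on either diet. At an unadjusted p below 0.05 there were 4 on the CD and 2 on the WD, beside 20.1% and 24.5% of all genes. DESeq2 called 3 and 2, beside 12.0% and 15.3%. The Ly6 gene with the highest cpm, *Ly6e*, was at 760 ± 236 cpm in CD45hi and 474 ± 48.1 cpm in CD45lo cells of CD-fed mice. Of 9 genes of the MYC, MAX and MXD family, *Mxd1* was the only one called higher in CD45hi cells on either diet. *Max* itself was at 307 ± 140 against 147 ± 41.4 cpm on the CD and did not pass (log2 fold change 1.06, SE 0.26, edgeR glmTreat FDR = 0.156). *Mycl* was called lower on the CD, where 0.588% of all genes were.

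**Figure D4:**
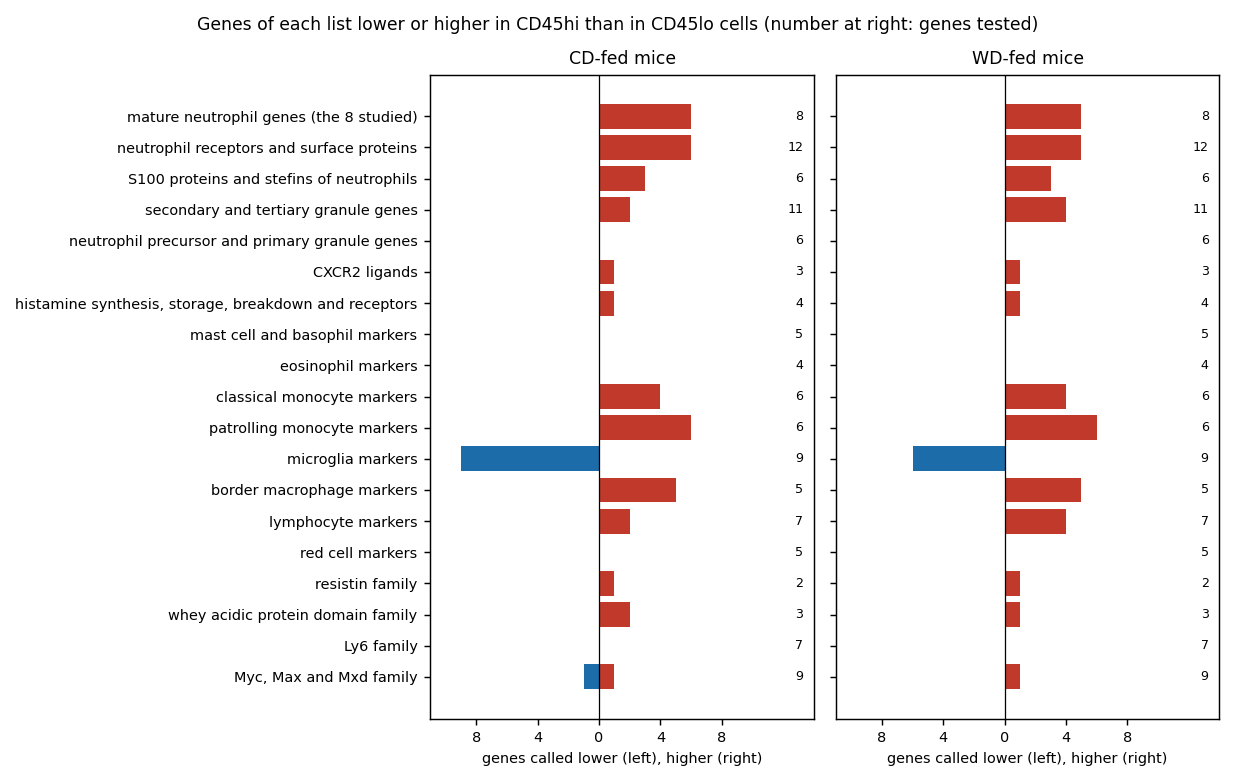
Number of genes of each list called lower (bars to the left) or higher (bars to the right) in CD45hi than in CD45lo cells on each diet, with the number tested at the right of each panel. The 8 neutrophil genes have 6 calls on the CD and 5 on the WD, all higher, while the microglia list has 9 and 6, all lower.

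Markers of other cells moved with the same contrast. Between CD45hi and CD45lo cells 4 of 6 classical monocyte markers, 6 of 6 patrolling monocyte markers and 5 of 5 border macrophage markers were called higher on each diet, as were 2 and 4 of 7 lymphocyte markers. Over all genes 3.39% were called higher on the CD and 4.01% on the WD. Of 9 microglia markers, 9 were called lower on the CD and 6 on the WD, where 0.588% and 1.17% of all genes were called lower. Of 5 mast cell and basophil markers tested, 0 were called by edgeR. At an unadjusted p below 0.05 there were 0 on the CD and 3 on the WD, beside 20.1% and 24.5% of all genes. DESeq2 called 0 of the mast cell and basophil markers. These markers bear on *Hdc*, since mast cells and basophils also make histamine: their summed level over 10 genes was 0 to 27.0 cpm in CD45hi libraries on the CD and 0 to 2.88 cpm on the WD, and it was 0 in replicate 3 of the CD-fed and replicate 1 of the WD-fed mice, where *Hdc* stood at 164 and 97.6 cpm. The sum of 27.0 cpm, of which *Gata2* gave 20.6 cpm, belonged to replicate 4 of the CD-fed mice, the library with the highest *Hdc*, 338 cpm. The part of such cells in the level of *Hdc* was not tested. *Mcpt4* and *Ms4a2*, defining genes of mast cells and of their IgE receptor, had 0 counts in all 7 CD45hi libraries. Every other member of that list had counts in at least 1 of them. *Kit* was highest in replicates 1 and 4 of the CD-fed mice, at 3.997 and 3.605 cpm. Of 4 eosinophil markers and 5 red cell markers 0 were called by edgeR on either diet. At an unadjusted p below 0.05 there were 0 eosinophil markers, and 1 red cell marker on the CD, and DESeq2 called 0 of both. Between the diets in CD45hi cells, 0 genes of all these lists were called by edgeR. Among the other neutrophil lists, 3 of 12 receptors, 3 of 6 S100 proteins and stefins, 3 of 11 granule genes and 3 of 6 precursor genes had an unadjusted p below 0.05, beside the 17.6% of all genes. DESeq2 called 2, 0, 0 and 1 of them, beside 6.88% of all genes, and edgeR 4 called 4, 0, 1 and 0, beside 1.68%.

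The lower fitted levels of the 8 genes on the WD stood beside higher fitted levels of some other markers, and lower levels of others, in the same CD45hi libraries. Of the patrolling monocyte markers 6 of 6 had a log2 fold change above 0 (median 1.01, 2 called by edgeR 4 and 0 by DESeq2, beside 1.68% and 6.88% of all genes), and their summed level was 264 to 535 cpm on the CD and 403 to 782 cpm on the WD. Eosinophil markers lay above 0 in 4 of 4 (median 2.36), with a sum of at most 19.6 cpm on the CD and 24.9 to 39.3 cpm on the WD, and lymphocyte markers in 6 of 7 (median 1.15), with 11.8 to 61.7 and 34.7 to 158 cpm. Red cell markers lay above 0 in 4 of 5. Mast cell and basophil markers lay below 0 in 5 of 5. Also below 0 were 9 of 12 neutrophil receptors (median -0.60), 6 of 6 S100 proteins and stefins (-1.79) and 9 of 11 granule genes (-0.89). So were 6 of 6 precursor genes, most of whose CD45hi libraries were near 0 cpm. Border macrophage markers lay below 0 in 4 of 5 (median -0.21), classical monocyte markers in 3 of 6 (-0.16) and microglia markers in 5 of 9 (-0.002). The median over all genes tested was -0.02. In CD45lo cells the eosinophil markers also lay above 0 in 4 of 4 (median 1.56). The eosinophil sum there was 16.5 to 20.5 cpm on the CD and 13.8 to 23.5 cpm on the WD. On the WD *Siglecf* alone was at 17.9 ± 2.31 cpm (n = 3) in CD45hi and 15.6 ± 4.41 cpm (n = 4) in CD45lo cells, so the sum is not particular to eosinophils. The eosinophil marker *Prg2* was at 22.0 cpm in CD45hi replicate 3 of the WD-fed mice and at 0 in replicates 1 and 2. The part of the cells that these lists mark in the difference between the diets was not tested.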

How the data were processed

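Brain myeloid cells were sorted as CD11b+CD45hi or CD11b+CD45lo, and poly(A)-selected RNA was sequenced (15 libraries). Per the labels and the study's methods, the authors demultiplexed reads with bcl2fastq 2.18.0.12, trimmed them and counted them per gene with RSEM 1.2.12 and Bowtie2 on mm10. The deposited expected counts (estimated counts, in part fractional) and the deposited TPM were used. Expected counts were rounded. The filter required 1 cpm or more in 2 or more libraries and left 14967 of 38924 genes, and TMM factors were computed. With edgeR 4.0.16, 1 quasi-likelihood model in the older (legacy) form was fitted to the 4 groups. The newer form, called edgeR 4 here, was an alternative only. All cpm values use TMM-scaled totals. The sorts were compared with glmTreat against a 1.5-fold limit, the diets and the interaction with glmQLFTest. P-values were adjusted over all genes tested (Benjamini-Hochberg, FDR below 0.05). SE is the log2 fold change divided by the square root of F. DESeq2 1.42.0 and R 4.3.3 served for alternatives. The fit was tested on simulated data. A total of 11951412 to 17912272 expected counts per library lets 3 counts, taken as the floor, equal 0.156 to 0.282 cpm. These limits cover counting error only.

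The 8 genes and the other 18 gene lists were chosen with earlier results of these data known. Of each other list at most the 3 members with the highest mean in CD45hi cells were named by rule, with further members named where a call or a 0 singled them out after their values were seen, as were *Mycl*, *Cxcr1*, *Mcpt4* and *Ms4a2*. Some genes stand in more than 1 list: *Ly6g*, *Retnlg*, *Hdc*, *Slpi*, *Wfdc21* and *Mxd1* are members of the family and pathway lists too. The study describes the deposited counts as given for each mouse, and the labels do not say which CD45hi and CD45lo libraries share one. Strand was not used in the library kit, and reads from overlapping genes cannot be told apart. *Slpi* overlaps *Mir7678* and *Mxd1* overlaps *Gm44292*, in both cases on the same strand. *Mir7678* was at 0 cpm on average in all 4 groups, and *Gm44292* is not among the genes counted.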

Additional observations from a re-analysis of the deposited data

Results flagged for a closer look

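Of 24 groups of 4 libraries tested for a value far from the others (8 genes in 3 groups of 4), 3 held one, where chance flags about 1 in 20. *Slpi* stood apart in CD45lo replicate 2 of WD-fed mice, at 2.82 cpm beside 0.274 cpm or less in the other 3. *Asprv1* stood apart in CD45lo replicate 3 on both diets, at 0.184 cpm on the CD and 0.110 cpm on the WD, beside 0 in the other libraries of those groups, and all of these are at most 3 counts. Where the other libraries are at 0 any value above 0 is flagged, so the flags of *Asprv1* cannot be set against that rate of chance.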

How the results depend on the processing

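The CD45hi over CD45lo calls for *Retnlg*, *Cxcr2*, *Asprv1*, *Hdc* and *Mxd1* held on both diets under all 24 alternatives run for each. Leaving out 1 library gave 5 to 6 of the 8 genes called on the CD and 5 to 6 on the WD, the change being *Slpi*, which DESeq2 also called on the WD (log2 fold change 3.08, adjusted p = 0.0321). *Ly6g* and *Wfdc21*, with libraries at 0 counts in every group, had intervals that cover both directions in each comparison.

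Between the diets in CD45hi cells, edgeR 4 called 2 of the 8 genes and DESeq2 called 1. Over all genes, this comparison moved from 38 calls to 69 with the stricter filter (at least 1 cpm in 4 libraries), 252 with edgeR 4, 0 with only the groups compared and 1030 with DESeq2, and leaving out any 1 of the 15 libraries gave 1 to 286. The sorts gave 1162 calls on the CD and 1335 on the WD when the 1.5-fold limit was applied after glmQLFTest, and 1794 and 2296 with DESeq2, from 595 and 775, and 513 to 920 on the WD without 1 library (515 without CD45lo replicate 1 and 513 without CD45lo replicate 3 of the WD-fed mice). DESeq2 called 4 genes between the diets in CD45lo cells and 188 for the interaction, where edgeR 4 called 0 and leaving out 1 library gave 0 to 6. The cause of these moves was not tested.

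The labels do not say that a replicate number marks a shared mouse, and no pairing was assumed. Same-numbered CD45hi and CD45lo libraries correlated at 0.0098 to 0.0695 on the CD. On the WD they correlated at -0.0217 to -0.0037 by title number and at -5e-04 to 0.013 by file number. On the CD, CD45hi replicate 1 correlated best with CD45lo replicate 2 (0.0455), and replicates 2, 3 and 4 with their own number. Taken from the other side, each CD45lo library on the CD correlated best with the CD45hi library of its own number. These correlations are small, and whether such libraries share a mouse was not settled. On the WD not every library correlated best with its own number under either numbering. With the replicate block, by title or by file number, calls between the sorts on the WD were 398 and 353, those between the diets in CD45hi cells 2 by title number, and those for the interaction 0 and 0. The replicate block turned the sign of *Ly6g* between the sorts on the WD (-3.72 and -0.81) and between the diets in CD45hi cells (1.81), of *Retnlg* between the diets in CD45lo cells (0.10) and of the interaction of *Wfdc21* (-0.95, by file number). It changed no call among the 8 genes.

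Without 1 library, 24 uncalled log2 fold changes turned sign. The ranges that follow are over all alternatives run, of which leaving out 1 library is a part. For *Ly6g* the values ran from -6.59 to 0.70 between the sorts on the WD and from -0.18 to 0.84 between the diets in CD45lo cells, where *Retnlg* ran from -0.71 to 0.64, *Asprv1* from -2.61 to 2.25 and *Slpi* from -2.66 to 0.37. Between the diets in CD45hi cells *Asprv1* ran from -1.25 to 0.01 and *Wfdc21* from -7.90 to 0.17. *Wfdc21* ran from -3.98 to 4.91 between the sorts on the WD. The interaction ran from -2.83 to 2.04 for *Asprv1*, from -2.39 to 0.64 for *Slpi* and from -6.34 to 2.55 for *Wfdc21*.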
